A study of Mus musculus with 6 samples.

Results

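The genes described here encode the initiation and elongation factors of cytoplasmic translation, measured by RNA sequencing of mouse naïve CD4 T cells. Members were all genes of the authors' table of 11221 genes whose symbol opens with Eif1 to Eif6 or with Eef1 or Eef2, without the eIF2 alpha kinases, the 4E-binding proteins and the Y-linked eIF2 gamma gene. The rule gave 55 genes, 54 of them protein coding and 1 an annotated pseudogene, Eif4a-ps4. Every gene of the authors' table was above 1 CPM in all 6 libraries, where CPM are read counts made comparable between libraries, so membership rests on a filter on expression, and that all 55 passed the filter on low counts among the 12336 genes tested follows from it. Another 11 genes of the same names in the count tables are not in the authors' table and were not members, and none of these had a group mean above 0.70 CPM after scaling with edgeR's TMM factors.

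Control mice were Rnmt fl/fl CD4cre - and Rnmt cKO mice were Rnmt fl/fl CD4cre +, with 3 libraries in each group, all from males. Both groups carried the floxed alleles, and the cKO group alone carried Cre, so an effect of Cre and of the deletion cannot be told apart. Cre is driven by Cd4 regulatory sequence and acts from the double positive thymocyte stage, so the sorted cells had matured after recombination. Naïve cells were sorted by flow cytometry from lymph nodes as TCRb+ CD4+ CD62L+ CD44- DAPI-, and their ages are not given in the sources used here. The comparison asks which translation factor mRNAs depend on RNMT, the enzyme that adds the N-7 methyl group to the guanosine cap of mRNA.

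In translation initiation, the eIF4F complex binds the mRNA cap through eIF4E, opens structure with the helicase eIF4A and recruits, through eIF4G and eIF3, the small ribosomal subunit that carries initiator tRNA on eIF2. eIF1, eIF1A and eIF5 help to select the start codon, and eEF1 and eEF2 then deliver aminoacyl-tRNAs and move the ribosome along. The mRNAs of the elongation factors and of some initiation factors belong to the TOP mRNAs, which open with a cytosine followed by a run of pyrimidines (the 5′ terminal oligopyrimidine motif) and are bound by the cap-binding protein LARP1. Resting T cells hold many of these mRNAs in a poorly translated state.

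Sense counts on genes came to between 8873413 and 11277764 per library. All 10 naïve CD4 T cell markers examined were above 1 CPM in every library, with sums of 5800 to 6399 CPM in controls and 6345 to 7238 CPM in Rnmt cKO libraries (2 called lower and 2 higher). Rnmt itself was at 51.5, 58.7 and 57.9 CPM in controls and at 42.0, 37.5 and 26.6 CPM in Rnmt cKO libraries, a log2 fold change of -0.67 ± 0.21 (SE; adjusted p = 0.00035; every adjusted p of a gene below is from edgeR's exact test, adjusted by Benjamini-Hochberg over all genes tested). The gene was counted whole although only exon 3 is flanked by loxP sites, so its remaining level does not measure intact transcript. Rnmt cKO library 3 stood apart from the other Rnmt cKO libraries. The share of reads in no gene was 31.8% in it and 47.9% and 46.5% in Rnmt cKO libraries 1 and 2, against 36.1%, 39.7% and 46.1% in control libraries 1, 2 and 3. Marker sums also moved with genotype: proliferation markers were at 230 to 255 CPM in controls and at 478 to 523 CPM in Rnmt cKO libraries (6 of 8 called higher), B cell markers at 42.4 to 50.8 and 54.2 to 97.4 CPM (4 of 8 higher), plasma cell markers at 48.4 to 55.7 and 65.8 to 84.5 CPM (2 of 4 higher), myeloid markers at 23.8 to 28.7 and 30.5 to 51.4 CPM (3 of 8 higher), CD8 markers at 21.7 to 23.3 and 13.5 to 17.3 CPM (2 of 2 lower), and erythroid markers at 4.75 to 7.52 and 1.06 to 1.35 CPM (2 of 5 lower). Above 1 CPM in every library were 7 of 8 proliferation, 8 of 8 B cell and 2 of 4 plasma cell markers. The same held for 2 of 8 myeloid, 1 of 2 CD8 and 0 of 5 erythroid markers, so several of these sums are near the floor. No marker was at 0 in all libraries, and the part of these cells in the results below was not tested. In sorted bulk samples, a change in the mix of cells and a change in RNA per cell cannot be told apart.

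Of the 55 members, 6 fell and 3 rose in Rnmt cKO cells. The members that fell were the elongation factor genes Eef1a1, Eef1b2 and Eef1g, the methyltransferase gene Eef2kmt, the eIF3 subunit gene Eif3i and the helicase gene Eif4a2. Those that rose were Eif5, Eif5a and Eif4h. The fallen members were 10.9% of the 55, beside 6.84% of all genes tested, and the risen members 5.45%, beside 8.0%. In 8 members every Rnmt cKO value lay below every control value, 14.5% beside 14.9% of all genes tested, and in 9 every value lay above, 16.4% beside 16.6%. The median log2 fold change over the members was 0.02 and over all genes tested 0.01. Of the 6 falls, 3 were among the 5 elongation factor genes. Scaling by library size alone, without TMM factors, moved the median of all genes tested to 0.14, that of the members to 0.14 and the calls to 5 lower and 10 higher (9.09% and 18.2% of members, beside 4.34% and 15.7% of all genes tested).

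**Figure D1:**
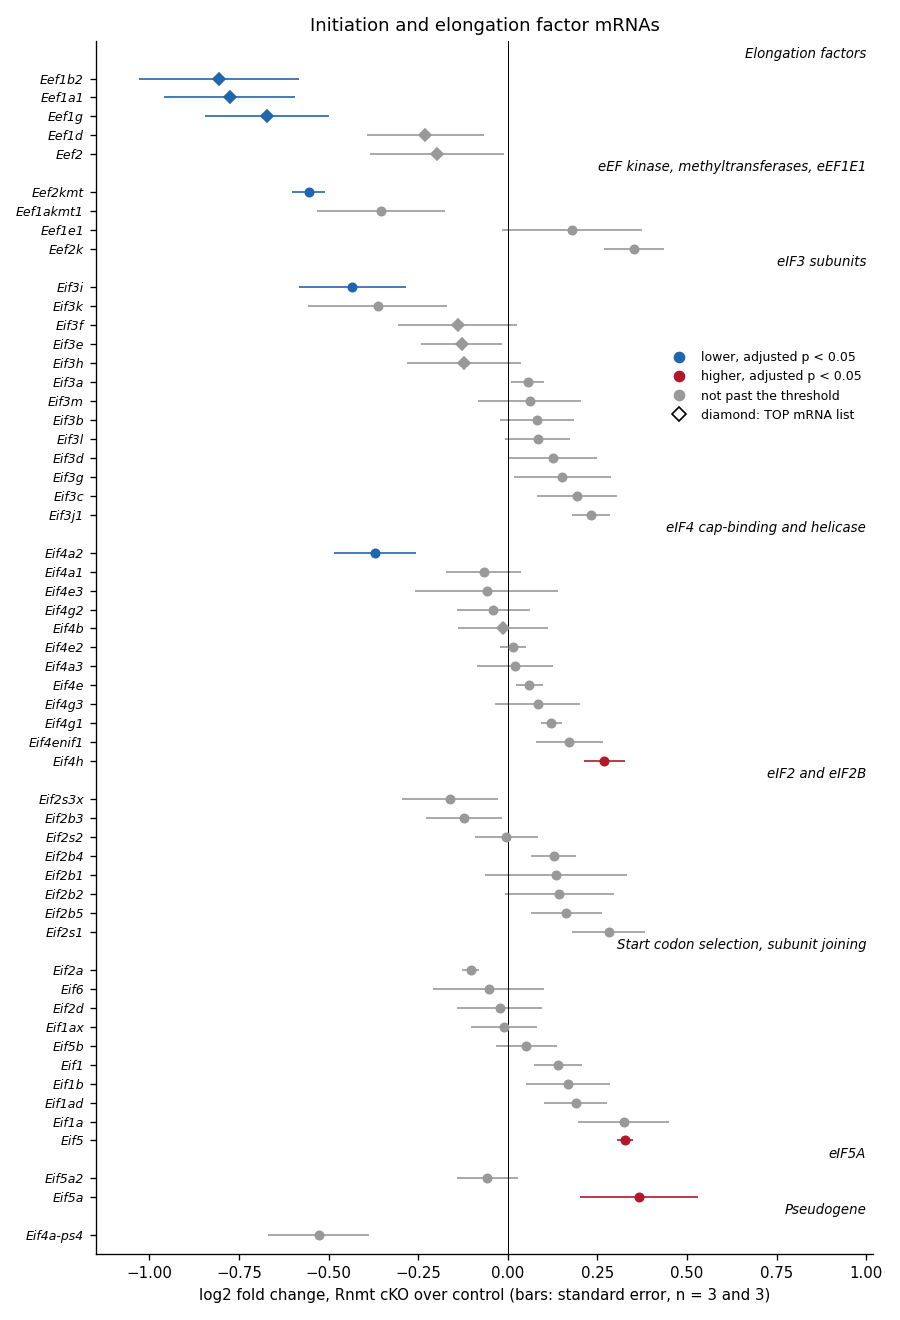
Log2 fold change of each of the 55 members (Rnmt cKO over control, x axis) with its standard error as a bar, sorted within groups of like function, in blue where the gene fell, in red where it rose and in grey where it did not pass the threshold. Diamonds mark the 9 members on the TOP mRNA list. Eef1b2, Eef1a1 and Eef1g lie farthest to the left, between -0.81 and -0.67, and the largest positive value is 0.37, for Eif5a.

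Eef1a1 (ENSMUSG00000037742, mm10 chromosome 9, 78478449 to 78489151, minus strand) encodes the GTPase that carries aminoacyl-tRNA to the ribosome. It was the most abundant member, and per kilobase of exon its level in controls was 6417 RPKM, against 1162 RPKM for Eef2, which came next. It stood at 12699, 11509 and 10329 CPM in controls 1, 2 and 3 and at 5949, 5924 and 8291 CPM in Rnmt cKO libraries 1, 2 and 3. The groups did not overlap, and Rnmt cKO library 3 was nearest to the controls. Its mean fell from 11512 ± 1185 CPM to 6721 ± 1359 CPM (SD, n = 3 each), a log2 fold change of -0.78 ± 0.18 (SE; adjusted p = 1.41e-05). Only uniquely mapped reads were counted, so reads that fit processed copies of Eef1a1 equally well are missing from these levels.

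Eef1b2 and Eef1g encode subunits of the eEF1B complex, which returns eEF1A to its GTP-bound form. Eef1b2 (ENSMUSG00000025967, chromosome 1, 63176825 to 63180486, plus strand) was at 842, 689 and 637 CPM in controls and at 355, 358 and 526 CPM in Rnmt cKO libraries. Its log2 fold change of -0.81 ± 0.22 (SE; adjusted p = 3.57e-05) was the largest fall of all members. Eef1g (ENSMUSG00000071644, chromosome 19, 8967041 to 8978479, plus strand) was at 750, 658 and 621 CPM in controls and at 373, 380 and 519 CPM in Rnmt cKO libraries, a log2 fold change of -0.67 ± 0.17 (SE; adjusted p = 6.04e-05). For both genes the groups did not overlap, and Rnmt cKO library 3 was again the highest of its group.

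The other elongation factor genes did not pass the test. Eef1d, whose product is the third core subunit of eEF1B, was at 187, 165 and 153 CPM in controls and at 132, 127 and 172 CPM in Rnmt cKO libraries, a log2 fold change of -0.23 ± 0.16 (SE; adjusted p = 0.277). Eef2, the translocase, was at 3885, 3625 and 3260 CPM in controls and at 2797, 2688 and 3906 CPM in Rnmt cKO libraries, a log2 fold change of -0.20 ± 0.19 (SE; adjusted p = 0.462). For both genes Rnmt cKO libraries 1 and 2 lay below all controls, while library 3 lay among them for Eef1d and above them for Eef2. Without Rnmt cKO library 3 both passed the threshold, with log2 fold changes of -0.40 and -0.41. With all 6 libraries, a quasi-likelihood fit with the share of reads in no gene as a covariate also called both lower (-0.20 and -0.17). Neither passed under the other 13 alternatives fitted.

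**Figure D2:**
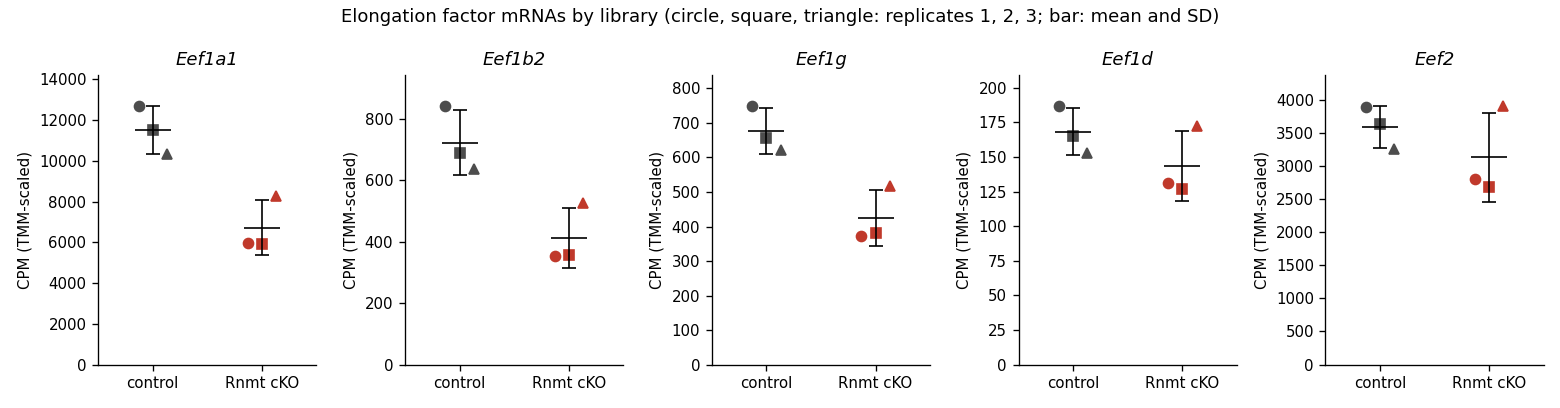
TMM-scaled CPM (y axis, starting at 0) of the 5 elongation factor genes in each library, with replicates 1, 2 and 3 as circle, square and triangle and the mean and SD as bars. The groups are apart for Eef1a1, Eef1b2 and Eef1g, and overlap for Eef1d and Eef2 through Rnmt cKO library 3, the triangle.

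The 5 elongation factor genes together held 16669 ± 1682 CPM (SD, n = 3) in controls and 10832 ± 2237 CPM in Rnmt cKO libraries. All 55 members together were at 25812, 23822 and 22125 CPM in controls and at 16527, 16537 and 21413 CPM in Rnmt cKO libraries. Without Eef1a1 the sums were 13114, 12313 and 11796 CPM in controls and 10578, 10613 and 13122 CPM in Rnmt cKO libraries, and the groups overlapped. Eef1a1 took 46.7% to 49.2% of member counts in controls and 35.8% to 38.7% in Rnmt cKO libraries, so most of the fall in the sum was in this 1 mRNA.

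A ratio of 2 genes within a library does not depend on how libraries are scaled to each other. The log2 ratio of Eef1a1 to Eef2 was 1.71, 1.67 and 1.66 in controls and 1.09, 1.14 and 1.09 in Rnmt cKO libraries. It was lower in Rnmt cKO cells by 0.58 in the means (1.68 ± 0.03 against 1.10 ± 0.03, SD, n = 3), and Rnmt cKO library 3 did not stand apart on this measure. The exact two-sided permutation test gave p = 0.1, the smallest it can give with 3 libraries against 3, and 0.4 after adjustment over the 4 ratios examined. The same ratio for other members was examined after their values had been seen and is given as a description without a test. The log2 ratio to Eef2 went from -2.32 ± 0.10 to -2.93 ± 0.05 for Eef1b2 and from -2.41 ± 0.05 to -2.88 ± 0.05 for Eef1g, with groups apart. For Eef1d it was -4.42 ± 0.04 in controls and -4.44 ± 0.05 in Rnmt cKO cells, and the groups overlapped. Thus Eef1a1, Eef1b2 and Eef1g were lower relative to Eef2 in each Rnmt cKO library than in any control, by a like amount in library 3 as in the others, and Eef1d was not.

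**Figure D3:**
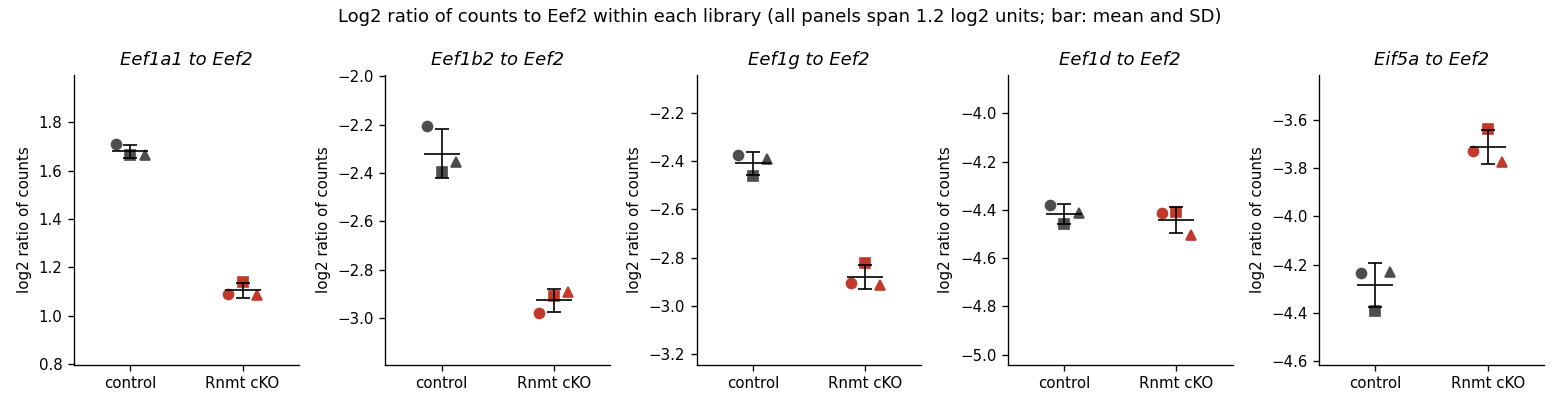
Log2 ratio of the counts of 5 members to those of Eef2 within each library (y axis, each panel spanning an equal range), with the mean and SD as bars. The groups are apart for Eef1a1, Eef1b2, Eef1g and Eif5a and overlap for Eef1d. The panels other than that of Eef1a1 were chosen after the values had been seen.

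The genes of an elongation factor kinase, methyltransferases and eEF1E1 formed a small group with low counts. Eef2kmt (ENSMUSG00000022544, chromosome 16, 5244152 to 5255983, minus strand), which encodes a lysine methyltransferase of eEF2, was at 22.1, 21.96 and 20.99 CPM in controls and at 14.3, 14.3 and 15.6 CPM in Rnmt cKO libraries. It fell by 0.56 on the log2 scale, with an SE of 0.05 and an adjusted p of 0.000598, and all 3 Rnmt cKO libraries were close to each other. Reads on its opposite strand came to 63.7% of its sense count, and with unstranded counts its log2 fold change was -0.38 and no longer passed. None of the other 3 genes of this group passed the test, with log2 fold changes from -0.35 to 0.35.

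Initiation factor eIF3 is the scaffold that binds the small ribosomal subunit, and 13 of its subunit genes were members. One of them fell and none rose (7.69% and 0%, beside 6.84% and 8.0% of all genes tested), and the median log2 fold change was 0.06. Eif3i (ENSMUSG00000028798, chromosome 4, 129591960 to 129600648, minus strand), which encodes a WD40 subunit, was at 162, 140 and 141 CPM in controls and at 97.5, 99.3 and 130.0 CPM in Rnmt cKO libraries. Its groups did not overlap, and its log2 fold change was -0.43 ± 0.15 (SE; adjusted p = 0.00673). The call depended on the libraries. Without control library 1, Rnmt cKO library 1 or Rnmt cKO library 2 the fold change was -0.36 to -0.38 and did not pass. The 3 eIF3 genes on the TOP mRNA list, Eif3e, Eif3f and Eif3h, had log2 fold changes of -0.13 ± 0.11, -0.14 ± 0.17 and -0.12 ± 0.16 (SE), none of which passed. In Eif3f the controls held 297, 255 and 238 CPM and the Rnmt cKO libraries 215, 216 and 286 CPM, again with library 3 among the controls. The other 9 subunit genes ranged from -0.36 to 0.23, and none passed.

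The eIF4 group comprised 12 genes for cap-binding proteins, scaffolds and helicases and their partners, of which 1 fell and 1 rose (8.33% each, close to the shares of all genes tested), with a median of 0.02. Eif4e, the cap-binding subunit, was at 61.7, 57.1 and 58.3 CPM in controls and at 60.8, 60.7 and 63.0 CPM in Rnmt cKO libraries, a log2 fold change of 0.06 ± 0.04 (SE; adjusted p = 0.783). The main scaffold gene Eif4g1 had a value of 0.12 ± 0.03 and its relative Eif4g3 of 0.08 ± 0.12, and Eif4b, a helicase cofactor on the TOP mRNA list, of -0.01 ± 0.13 (SE), none past the threshold.

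Eif4a2 (ENSMUSG00000022884, chromosome 16, 23107444 to 23114136, plus strand), 1 of 2 closely related cytoplasmic helicase genes, was at 454, 508 and 456 CPM in controls and at 397, 384 and 316 CPM in Rnmt cKO libraries. The groups did not overlap, and here library 3 was the lowest. Its log2 fold change was -0.37 ± 0.12 (SE; adjusted p = 0.0124), and it did not pass without control library 2 (-0.32) or with scaling by library size alone (-0.24). Eif4a1, its paralog, was at 382, 369 and 350 CPM in controls and at 324, 327 and 400 CPM in Rnmt cKO libraries, a log2 fold change of -0.07 ± 0.11 (SE; adjusted p = 0.789). The log2 ratio of Eif4a2 to Eif4a1 was 0.25, 0.46 and 0.38 in controls and 0.29, 0.23 and -0.34 in Rnmt cKO libraries, so the groups overlapped (exact two-sided permutation p = 0.2, 0.4 after adjustment). The difference of -0.30 was -0.10 without Rnmt cKO library 3.

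Eif4h (ENSMUSG00000040731, chromosome 5, 134619721 to 134639490, minus strand), which encodes another cofactor of the helicase, was at 191, 184 and 178 CPM in controls and at 211, 218 and 237 CPM in Rnmt cKO libraries. The groups did not overlap, and the log2 fold change was 0.27 ± 0.06 (SE; adjusted p = 0.032). Neither the quasi-likelihood test of edgeR nor DESeq2 called it, and it did not pass with any 1 library left out.

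Initiator tRNA is brought to the ribosome by eIF2, and eIF2B recharges eIF2 with GTP. None of these 8 genes passed the test, and their median was 0.13. Over all genes tested 6.84% fell and 8.0% rose, and 8 genes are too few for a comparison of shares. Eif2s1, the alpha subunit that is phosphorylated in stress, was at 113, 110 and 107 CPM in controls and at 128, 121 and 152 CPM in Rnmt cKO libraries, so that the groups did not overlap. Its log2 fold change of 0.28 ± 0.10 (SE) had an adjusted p of 0.0568, and it passed when genes were required to exceed 1 CPM in all 6 libraries, without Rnmt cKO library 2 (0.34), with scaling by library size alone (0.40) and with the share of reads in no gene as a covariate (0.30). Eif2s2, the beta subunit, had a log2 fold change of -0.004 ± 0.09 (SE).

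Among 10 factors of start codon selection and subunit joining, Eif5 rose and none fell, with a median of 0.10. These shares of 10% and 0% stand beside 8.0% and 6.84% of all genes tested. Eif5 (ENSMUSG00000021282, chromosome 12, 111538016 to 111546752, plus strand), the GTPase-activating protein of eIF2, was at 291, 291 and 296 CPM in controls and at 359, 366 and 377 CPM in Rnmt cKO libraries. The values within each group lay close together, and the log2 fold change was 0.33 ± 0.02 (SE; adjusted p = 0.00407). Without control library 2 it was 0.32 and did not pass. Eif1 and Eif1b, which guard the accuracy of start codon choice, had log2 fold changes of 0.14 ± 0.07 and 0.17 ± 0.12 (SE), and Eif6, which keeps free large subunits from joining, of -0.05 ± 0.16, none past the threshold. The log2 ratios of Eif1b to Eif1 (difference 0.02, p = 1.0) and of Eif4g3 to Eif4g1 (difference -0.04, p = 0.8, exact two-sided permutation tests) overlapped between groups.

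Eif5a (ENSMUSG00000078812, chromosome 11, 69916714 to 69921958, minus strand) encodes the hypusine-bearing factor that helps ribosomes through difficult peptide bonds. It was at 206, 173 and 174 CPM in controls and at 211, 216 and 286 CPM in Rnmt cKO libraries, with the highest value in library 3 and only a narrow gap between the groups. Its log2 fold change was 0.37 ± 0.16 (SE; adjusted p = 0.0456). It was not called by the quasi-likelihood test or DESeq2, and it did not pass without control library 2 (0.32), control library 3 (0.32) or Rnmt cKO library 3 (0.19).

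**Figure D4:**
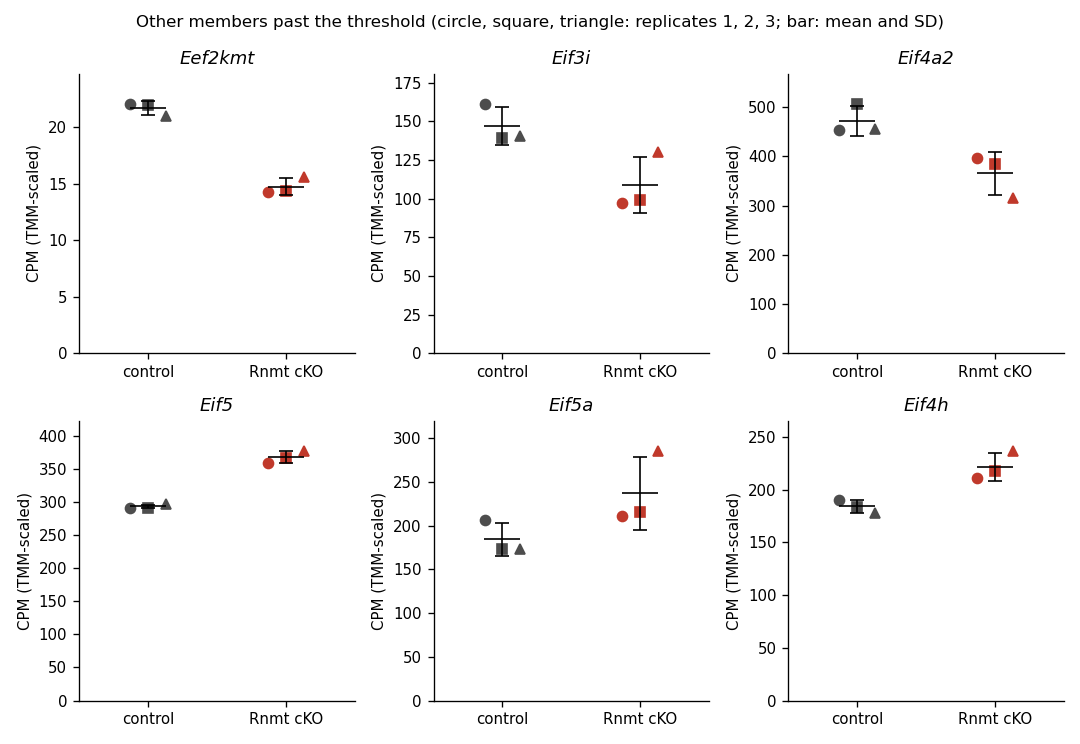
TMM-scaled CPM (y axis, starting at 0) of the other 6 members past the threshold in each library, with the mean and SD as bars. Eef2kmt, Eif3i and Eif4a2 are lower and Eif5, Eif5a and Eif4h higher in all 3 Rnmt cKO libraries than in any control, with library 3 (triangle) at the edge of its group in each panel.

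The 9 members on the TOP mRNA list, taken from general knowledge of this mRNA class, all had a log2 fold change below 0, with a median of -0.20. Also below 0 were 5886 of the 12336 genes tested and 17 of the other 46 members. Eif4b, at -0.01, turned to above 0 under 5 of the 15 alternatives fitted. The median of the list was -0.40 without Rnmt cKO library 3, -0.12 and -0.10 without Rnmt cKO libraries 1 and 2, and -0.08 with scaling by library size alone. Of the 9, 3 passed the test (33.3%, beside 6.84% of all genes tested), which were Eef1a1, Eef1b2 and Eef1g. The other 46 members had a median of 0.07, with 3 lower and 3 higher (6.52% each, beside 6.84% and 8.0%). The spread over libraries bears on this. In the libraries with a lower share of reads in no gene, Rnmt cKO 3 and controls 1 and 2, the median log2 difference of the TOP list was 0.004, and in the other 3 libraries it was -0.25. Over all genes tested these medians were -0.004 and 0.008, and over the other 46 members 0.17 and 0.03. Eef1a1, Eef1b2 and Eef1g were lower in both sets, with log2 differences of -0.54, -0.53 and -0.44 in the first and of -0.80, -0.84 and -0.72 in the second. The remaining 6 of the list lay between -0.03 and 0.19 in the first set and between -0.25 and -0.09 in the second. The other called members kept their direction in both sets. Each set has 1 library in one of its groups, so no test was made.

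**Figure D5:**
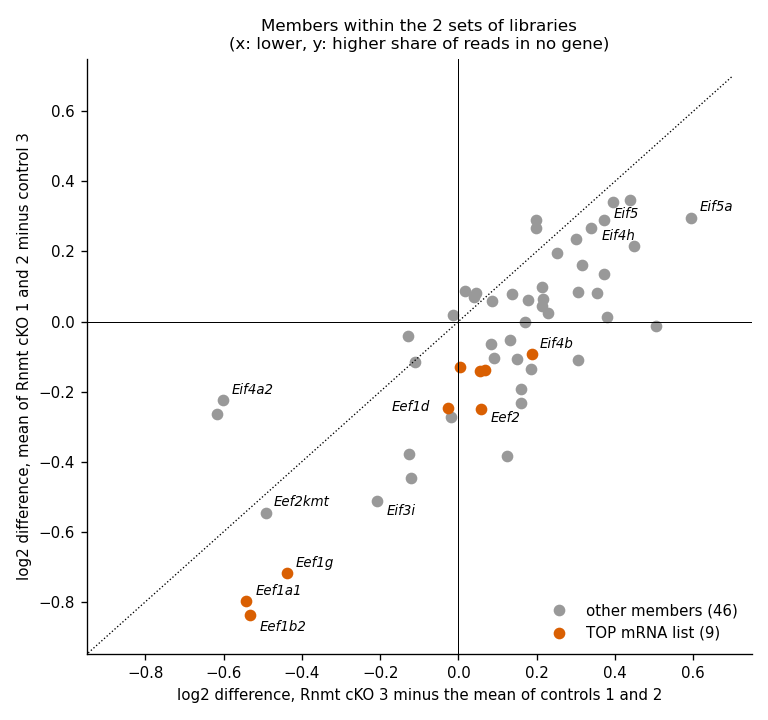
Log2 difference of each member between Rnmt cKO library 3 and the mean of controls 1 and 2 (x axis) and between the mean of Rnmt cKO libraries 1 and 2 and control 3 (y axis), with the TOP mRNA list in orange and the dotted line marking equal values. Eef1a1, Eef1b2 and Eef1g are below 0 on both axes, while the other 6 of the list are near or above 0 on the x axis and below 0 on the y axis.

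With Rnmt cKO library 3 left out, 14 members fell and 1 rose (25.5% and 1.82%). The calls over all genes tested also grew, to 1285 lower (10.5%) and 1221 higher of 12181. The 14 included the 6 of the full comparison, and also Eef1d, Eef2, Eif3e, Eif3f, Eif3h, Eif3k, Eef1akmt1 and Eif2s3x. The Rnmt cKO libraries left, 1 and 2, had 47.9% and 46.5% of reads in no gene, and the controls 36.1%, 39.7% and 46.1%. Genotype and this share thus went partly together in that comparison, and the part of the share in the added calls was not tested. A quasi-likelihood fit with the share of reads in no gene as a covariate called 9 lower and 9 higher, 16.4% each, beside 11.9% and 13.7% of all genes tested. The 9 lower held the 6 of the full comparison, and also Eef1d, Eef2 and Eif3k.

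Since the TOP motif sits at the transcript start, the RefSeq starts of members (GRCm38.p6) were searched for the longest run of C and T on the gene's strand that opens with C, from 50 bases before to 50 bases after. The run found need not begin at the start, as a TOP motif does. In bases from the annotated start, it opened before it in Eif5 (-43), Eef2kmt (-40), Eif4b (-38), Eif4a2 (-29), Eef1a1 (-5) and Eif3f (-4). It opened after the start in Eef2 (15), Eif4h (18) and Eef1b2 (32). Of all members searched, it opened nearest to the start in Eif2s3x (-1, a run of 12 bases), which is off the TOP list. The windows below, each of 30 bases with that run in capitals, show members that fell (Eef1a1, Eef1b2, Eef2kmt, Eif4a2), members on the TOP list that did not pass (Eef2, Eif3f, Eif4b) and members that rose (Eif5, Eif4h).
Eef1a1, chr9:78481710-78481739, minus strand: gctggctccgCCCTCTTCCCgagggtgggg
Eef1b2, chr1:63176851-63176880, plus strand: tgcgtccgagcgCTTTCgttcaactccggc
Eef2kmt, chr16:5255978-5256007, minus strand: tagttgccacgCCTCCTCCgtctcaggcct
Eif4a2, chr16:23107427-23107456, plus strand: gggctccgccggCCTCTgcggcagggccgc
Eef2, chr10:81176635-81176664, plus strand: acgtcagcggtCTCTTCCgccgcagccgcc
Eif3f, chr7:108934404-108934433, plus strand: ttctaggCTCTCTCTCTTTCTCggcaagat
Eif4b, chr15:102073724-102073753, plus strand: ctcagactccaCCCCTTCggccacatgtcg
Eif5, chr12:111538045-111538074, plus strand: accacgagtggagCCCCaggaagtggaggg
Eif4h, chr5:134639375-134639404, minus strand: gcgcggcggacagCCCCggtagcggggcgg

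The longest run was 15 bases in Eif3f, which did not pass the test, and 5 bases in Eef1b2, which fell the most. In Eef1a1 it was 10 bases, in Eef2 7 and in Eif4a2 5, and of the members that rose it was 4 in Eif5 and Eif4h and 12 in Eif5a. A run of at least 8 was held by 18 of the 43 members with a promoter entry (41.9%) and by 2670 of 8492 tested genes with one (31.4%). On the TOP list it was 2 of 5 and among the other members 16 of 38. By this measure the members that fell, the members that rose and the TOP list covered overlapping ranges. The run may lie anywhere in the window, before or after the start, and was the longest over all entries of a gene (6 for Eif5a). The measure therefore cannot tell a TOP motif from another run, and no conclusion about the motif is drawn from it. The annotated start need not be the start used in these cells, and no entry was used for 12 members, among them Eef1g, Eif3i, Eef1d, Eif3e and Eif3h. A match of letters is a description and not a mapped start.

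Other genes of the pathway were taken from a list of 41, of which 40 were tested. Of these 1 fell and 3 rose (2.5% and 7.5%, beside 6.84% and 8.0% of all genes tested), and the median log2 fold change was 0.05. Pabpc1, the main cytoplasmic poly(A)-binding protein and itself known as a TOP mRNA, was at 720, 708 and 802 CPM in controls and at 451, 504 and 568 CPM in Rnmt cKO libraries, a log2 fold change of -0.55 ± 0.11 (SE; adjusted p = 5.17e-05). Eif2ak2, the interferon-induced kinase that phosphorylates eIF2 alpha, rose from 34.5 ± 3.5 to 58.9 ± 7.9 CPM (SD, n = 3), a log2 fold change of 0.77 ± 0.14 (SE; adjusted p = 1.64e-07). Larp1 rose by 0.31 ± 0.05 (SE; adjusted p = 0.00933) and the termination factor gene Etf1 by 0.39 ± 0.10 (SE; adjusted p = 0.00286). These are mRNA levels, and for LARP1 protein the paper reports no change by western blot in naïve CD4 T cells. For these 4 genes the groups did not overlap.

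Several members carry small nucleolar RNAs (snoRNAs), guides of ribosomal RNA modification, inside their introns. The annotation places 17 snoRNA genes within members on the same strand, of which 8 had no count in any library and 4 were tested. Of these 4, 2 fell, beside 6.84% of all genes tested, and 4 are too few for a comparison of shares. Only uniquely mapped reads were counted here, while for small RNAs the paper realigned reads and kept those with several matches. Gm25835, inside Eif4a1, was at 36.9, 22.2 and 30.04 CPM in controls and at 9.19, 9.11 and 19.3 CPM in Rnmt cKO libraries, a log2 fold change of -1.24 ± 0.41 (SE; adjusted p = 0.000303), while Eif4a1 itself was at -0.07. Gm24616, inside Eif4a2, was at 12.7, 7.39 and 7.07 CPM in controls and at 1.90, 2.19 and 5.56 CPM in Rnmt cKO libraries, a log2 fold change of -1.48 ± 0.53 (SE; adjusted p = 0.00299), beside -0.37 for its host. For both, library 3 was again nearest to the controls. Reads of a snoRNA and of the intron or exon around it share their strand and cannot be fully told apart in these counts.

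Strand mattered for few members. Opposite-strand reads exceeded the sense count only for Eif2d, at 174% of it, which had a log2 fold change of -0.02. With unstranded counts Eif3d kept 38.4% of its sense count, since reads in overlapping genes are then ambiguous, and it was called in neither count.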

How the data were processed

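RNA was sequenced from rRNA-depleted TruSeq libraries of 6 samples. The authors aligned paired-end reads to mm10 with STAR 2.5.2b against GENCODE vM12 (basic), and deposited unnormalized gene counts of uniquely mapped read pairs. The sense-strand column was used. In every library it was proportional, within 0.1%, to the normalized signal that the authors deposited in their edgeR table for 100% of the genes there, and the signal served for that check alone. The table gave the gene symbols for the rule. It also holds the authors' fold changes and p-values, which were not used. Reads in no gene stayed out of library sizes and tests.

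Genes above 1 CPM in at least 3 samples were tested across the whole table with the edgeR 4.0.16 exact test (tagwise dispersions, TMM, R 4.3.3), adjusted by Benjamini-Hochberg and called below 0.05. Standard errors were computed from the log2 CPM of each sample (prior count 2). RPKM is TMM-scaled CPM per kilobase of exon in GENCODE vM21 on the same build, which held 46488 of 46983 gene identifiers and all 55 members. Log2 ratios of counts were compared with exact permutation tests in scipy. Quasi-likelihood tests and DESeq2 1.42.0 were alternatives. A stricter filter, above 1 CPM in all 6 samples, was another. It called 753 genes lower and 845 higher, the numbers the paper reports, where the main filter called 844 and 987. The code was tested on simulated data.

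Members and gene lists were chosen with earlier results of these data known. Named genes are Rnmt, every member past the threshold, the 9 TOP members, 12 other factors of central function, and list genes and intronic snoRNAs past the threshold. Eif3d, Eif3k, Eif2d, Eef1akmt1 and Eif2s3x were named after their values were seen. The window and length of the pyrimidine search were set after sequences and fold changes had been seen, and other choices were considered but not computed.

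No 2 libraries of a group agreed within sampling noise (chi-square per degree of freedom 3.64 to 22.9). The labels do not say whether replicates are separate animals, so p-values measure the spread between these samples only.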

Additional observations from a re-analysis of the deposited data

How the results depend on the processing

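The counts of called members (6 lower, 3 higher) depended on the setting. Higher members numbered 1 with the quasi-likelihood test, DESeq2, no filter on low counts or unstranded counts, 5 with a stricter filter (above 1 CPM in each of the 6 samples), 9 with the share of reads in no gene as a covariate and 10 with library size only; leaving out 1 library gave 5 to 14 lower and 0 to 3 higher. The median log2 fold change moved to 0.14 over members and 0.19 over members off the TOP list with library size only, and to 0.15 and 0.17 in the 3 libraries with under 40% of reads in no gene (an alternative chosen after seeing the data); leaving out 1 library gave -0.05 to 0.06 and -0.020 to 0.093, and -0.40 to -0.10 for the TOP list. The cause was not tested. Rnmt kept its direction and its call under all alternatives. Eef1b2 and Eef1g kept theirs under all 15 alternatives fitted, and Eef1a1 under all but the replicate block. Of the planned members followed through the fitted alternatives, these turned direction, without being called in any: Eif2s2 (0.12 with library size only, 0.001 with the stricter filter, 0.014 with the covariate, -0.068 to 0.043 leaving out 1 library), Eif4b (0.11 with library size only, 0.006 with the covariate, -0.16 to 0.06), Eif6 (0.069 with library size only, -0.182 to 0.024) and Eif4a1 (0.053 with library size only). In the 3 libraries with under 40% of reads in no gene, Eef2 (0.06), Eif3e (0.004), Eif3f (0.05), Eif3h (0.07), Eif2s3x (0.12) and Eif2d (0.19) also turned to above 0 and Eif4g3 (-0.01) to below 0. The summed CPM of members differed by -0.40 on the log2 scale, and by -0.12 without Eef1a1.

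Same-numbered libraries did not deviate together (correlations of -0.21, -0.02 and -0.35), so the check gave no sign of pairing by number. The largest correlations were 0.35 for control 1 with Rnmt cKO 3 and 0.29 for control 3 with Rnmt cKO 2. These are libraries of like share of reads in no gene, a difference that could mask a pairing, so the check cannot exclude one. A quasi-likelihood test with the replicate number as a block called 2 members lower, Eef1b2 and Eef1g, and 0 higher. These were 3.64% and 0% of members, beside 2.24% and 3.49% of all genes tested.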
